A study of Mus musculus with 16 samples.

Results

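The subject is the transcriptional difference between 2 kinds of dendritic cell (DC) that were grown from mouse bone marrow (BM), activated in the dish and then sorted for the surface proteins CD24 or CD172a. The 8 BM culture arrays of the series' 16 were used, 4 labelled CD24 and 4 labelled CD172a. The 4 mice behind them each gave 1 array of either sort. The other 8 arrays hold the same 2 sorts from spleen and served only for comparison. Mice labelled KO were Ciita -/- and carried a single GFP allele of Zbtb46 (Zbtb46 GFP/+). Mice labelled WT were Ciita +/+ and also Zbtb46 GFP/+, so every mouse, controls included, carried that GFP allele on the B6 strain. Both tissues had 2 mice of either genotype. Marrow was cultured for 9 days with 5% Flt3l, then given gamma interferon and, for 4 hours, LPS. The gamma interferon step lasted 22 hours in the growth protocol and 16 hours in the series design, and which is right is not known. Ages, pooling of animals and any further gate on the sorted cells are not given in the sources used here. There were no unactivated culture arrays, so the differences are those between 2 activated populations, not responses to the stimuli.

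Flt3l drives marrow progenitors to become classical DCs of 2 types. The cDC1 type, sorted here by CD24, takes up dying cells through receptors such as Clec9a, carries the chemokine receptor Xcr1 and is known for presenting internalised antigen on MHC class I to CD8 T cells (cross-presentation). Its identity depends on the transcription factors Irf8 and Batf3. The cDC2 type, sorted by CD172a (the protein of the gene Sirpa), expresses more Irf4, presents antigen mainly to CD4 T cells and is known for sensing through Tlr7 and several C-type lectins. Gamma interferon and LPS push both types into an activated state with cytokine secretion, interferon-induced genes and high levels of costimulatory molecules.

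Values are log2 signals of Affymetrix Mouse Gene 1.0 ST arrays, on which 1 unit is a doubling of the signal. Differences are CD24 minus CD172a, averaged over the 4 mice and given with the standard error (SE) of a limma fit with mouse as a block. A gene was called when its Benjamini-Hochberg adjusted p over 19938 genes was under 0.05. Of these genes, 2240 were higher in CD24 cells (11.2%) and 2648 lower (13.3%), together 24.5% of the array. Differences of at least 2-fold leaned the other way, with 431 genes higher (2.16%) and 193 lower (0.968%). At 8-fold the counts were 21 and 2. The shares of 11.2% higher and 13.3% lower are the background for the counts in the gene lists below. The 4 CD24 arrays and the 4 CD172a arrays did not overlap in 4443 genes (22.3%). The p-values measure the spread between these 4 mice. In sorted bulk samples, fewer cells of a type and less RNA per cell cannot be told apart.

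1 array stood apart from its group. Over the 504 genes at least 2-fold higher in CD24 cells in the other 3 mice, the CD24 array of KO replicate 2 lay a median 0.66 below the mean of the other CD24 arrays, and below all 3 of them in 476. Over the 267 genes lower by that much it lay a median 0.74 above them, and above all 3 in 229. Its correlation with the 4 CD172a arrays, across genes, was 0.9844 to 0.9862, against 0.9607 to 0.9797 for the other CD24 arrays. The CD172a array of the same mouse lay nearer to its group. Over the 504 genes its median distance from the other CD172a arrays was -0.18, below all 3 in 280 and above them in 69. Over the 267 genes it was 0.09, above all 3 in 116 and below them in 67. The subset difference of that mouse kept the sign of the other 3 in 762 of these 771 genes and was a median 0.643 of their mean. The same ratio, over genes called at 2-fold without the mouse in question, was 0.934 for WT replicate 1, 1.11 for WT replicate 2 and 1.17 for KO replicate 1. Without this mouse the counts were 2482 higher and 2794 lower, and 613 of the 624 genes called at 2-fold or more with it were also called at 2-fold or more without it.

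The labels were checked first against 4 markers. Xcr1 (probe set 10597996, chromosome 9) read 10.41 and 10.87 in the WT and 10.84 and 9.58 in the KO CD24 arrays, against 6.56, 6.66, 6.48 and 6.27 in the CD172a arrays of the same mice in that order. Its difference was 3.93 ± 0.16 (SE, n = 4 mice, limma adjusted p = 3.43e-05), or 15.2-fold. Clec9a (probe set 10542181, chromosome 6) read 11.29, 11.33, 11.23 and 10.88 in CD24 arrays and 7.57, 7.49, 7.13 and 6.72 in CD172a arrays, a difference of 3.96 ± 0.08. Both cDC1 markers were thus high in every CD24 array and low in every CD172a array, with no overlap. S100a4 (probe set 10493812, chromosome 3), a calcium-binding protein, went the other way: it read 7.83, 7.93, 7.73 and 7.61 in CD24 and 10.75, 11.04, 10.55 and 10.23 in CD172a arrays (-2.87 ± 0.08, limma adjusted p = 1.07e-05). Sirpa (probe set 10476021, chromosome 2) read 8.38, 8.43, 8.36 and 9.17 in CD24 and 11.07, 11.37, 11.26 and 11.19 in CD172a arrays, a difference of -2.64 ± 0.15. Sirpa encodes the antigen of the sort, so its direction checks the labels and is no finding. All 4 markers matched the labels in every mouse, and the CD24 array of KO replicate 2 held the lowest Xcr1 and Clec9a and the highest Sirpa of its group.

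The gene of the other sort antigen, Cd24a, did not separate the arrays. Its signal was at most 13.16 in CD24 arrays and at least 12.98 in CD172a arrays, with all 8 values inside these bounds. The difference was 0.05 ± 0.05 (limma adjusted p = 0.524), and the groups overlapped. In spleen the same sorts differed by 2.04 ± 0.13 (SD, n = 4 mice) in this gene.

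**Figure D1:**
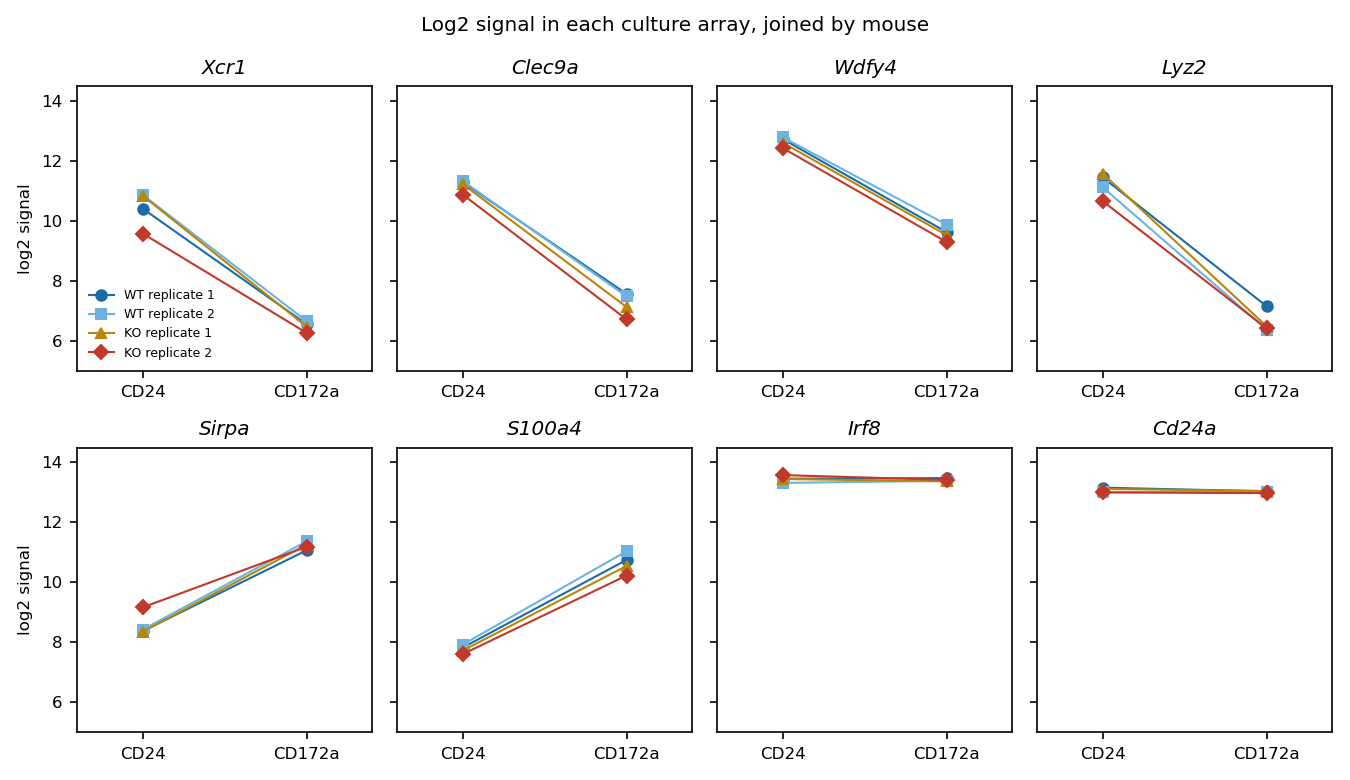
Log2 signal (vertical axis) of 8 genes in the CD24 and CD172a arrays of the 4 culture mice, each line joining the arrays of 1 mouse. Xcr1, Clec9a, Wdfy4 and Lyz2 fell from CD24 to CD172a in every mouse, Sirpa and S100a4 rose, and Irf8 and Cd24a stayed between 12.98 and 13.58 in all 8 arrays.

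Of the genes higher in CD24 cells, the largest difference was in Lyz2, the lysozyme of macrophages and other myeloid cells. Lyz2 read 11.45 and 11.12 in WT and 11.58 and 10.66 in KO CD24 arrays, against 7.16, 6.38, 6.49 and 6.42 in CD172a arrays, and the groups were far apart. Its difference of 4.59 ± 0.14 (limma adjusted p = 1.48e-05) is 24.1-fold. Entpd1, the ectoenzyme CD39 that breaks down extracellular ATP, followed. It read 11.30, 11.33, 11.09 and 10.79 in CD24 and 7.10, 6.81, 6.69 and 6.78 in CD172a arrays (4.28 ± 0.09, limma adjusted p = 2.57e-06). Neither Lyz2 nor Entpd1 overlapped between the sorts. The others of the 15 highest were, besides Clec9a and Xcr1, Ctla2b (4.26), the lipid amidase Naaa (3.89), the scavenger receptor Cd36 (3.84), the tight-junction protein Cldn1 (3.82), thromboxane synthase Tbxas1 (3.71), glutaminyl cyclase Qpct (3.54), Plekho2 (3.49), the lysosomal thioesterase Ppt1 (3.48), the mitochondrial serine carrier Sfxn1 (3.48), the fatty acid receptor Ffar4 (3.39) and the Ras exchange factor Rasgrp3 (3.38). None of these 15 overlapped between the sorts, beside 22.3% of all genes, but they were chosen for the size of their difference. Each rose in CD24 cells in all 4 mice, which the naming rule required.

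At the other end, Rtp4, an interferon-induced chaperone of membrane receptors, was the lowest of all genes: 7.14, 7.56, 7.78 and 7.88 in CD24 against 11.19, 11.51, 11.55 and 11.64 in CD172a arrays. Its difference was -3.88 ± 0.07 (limma adjusted p = 2.5e-06), a 14.7-fold lower signal in CD24 cells with no overlap. Plekhs1 followed at -3.20 ± 0.14, from 5.93, 5.77, 5.85 and 6.58 in CD24 to 9.11, 8.80, 9.60 and 9.41 in CD172a arrays. After S100a4 came Ddx58 (-2.79), which encodes the cytosolic RNA sensor RIG-I, the fatty acid carrier Fabp5 (-2.69), Sirpa, Tnfsf4 (-2.56), Ifit3 (-2.54), the oxysterol receptor Gpr183 (-2.38), Papss2 (-2.36), Plcl1 (-2.32), Siglecg (-2.31), the ubiquitin-like modifier Ubd (-2.30), the RNA helicase Ddx60 (-2.22) and the chemokine Ccl6 (-2.17). Tnfsf4, the OX40 ligand that costimulates T cells, rose from 5.97, 5.86, 6.68 and 8.76 in CD24 to 8.62, 8.76, 9.28 and 10.83 in CD172a arrays. Within each mouse it was lower in CD24 cells, while the arrays of the sorts overlapped. Both arrays of KO replicate 2 were the highest of their sort.

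**Figure D2:**
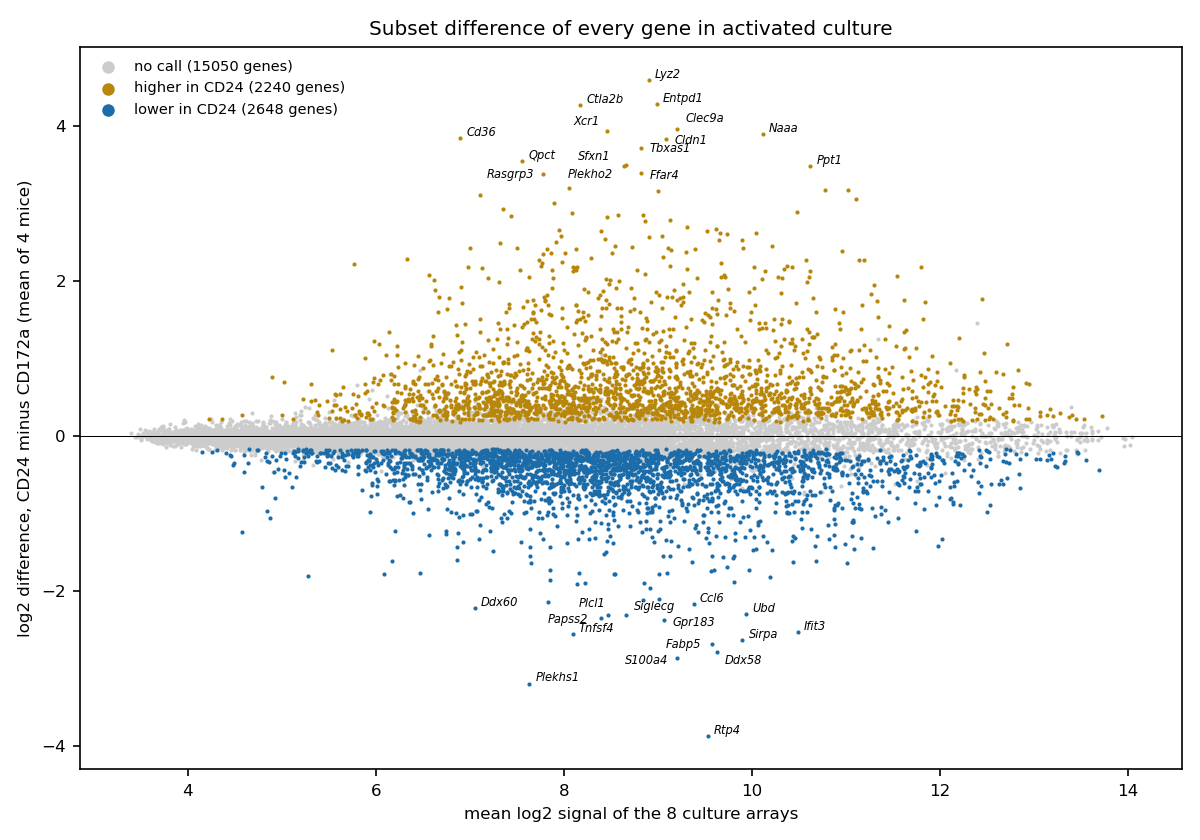
Log2 difference, CD24 minus CD172a (vertical axis, mean of 4 mice), against the mean log2 signal of the 8 culture arrays (horizontal axis) for 19938 genes. Called genes are gold where higher in CD24 (2240) and blue where lower (2648), and the 15 highest and 15 lowest called genes are named, from Lyz2 at 4.59 to Rtp4 at -3.88.

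Of the 19 cDC1 markers measured (of 20 listed), 17 were higher in CD24 cells, 1 was lower and 1 had no call, with a median difference of 2.03 against -0.03 over all genes tested. Without KO replicate 2 the counts were the same and the median was 2.24. Wdfy4, which cDC1 need for cross-presentation, read 12.73, 12.79, 12.61 and 12.43 in CD24 and 9.63, 9.88, 9.53 and 9.30 in CD172a arrays (3.05 ± 0.06, limma adjusted p = 2.5e-06). The late endosomal GTPase Rab7b (2.83 ± 0.20), the integrin Itgae (CD103, 2.58 ± 0.21), the adhesion molecule Cadm1 (2.15 ± 0.12), Gcsam (2.03 ± 0.19), Snx22 (1.5 ± 0.16) and the double-stranded RNA receptor Tlr3 (1.45 ± 0.24) also rose without overlap. Smaller rises were found for Gpr33 (1.03), Cd8a (0.87), Tlr12 (0.66), the endocytic receptor Ly75 (DEC-205, 0.65) and Ifi205 (0.63). Cd8a overlapped between the sorts, with 9.17, 9.59, 9.95 and 8.61 in CD24 against 8.78, 8.68, 8.58 and 7.78 in CD172a arrays.

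The 2 transcription factors that define cDC1 were the exceptions in that list. Irf8 read 13.46, 13.32, 13.45 and 13.58 in CD24 and 13.48, 13.39, 13.37 and 13.42 in CD172a arrays, and the groups overlapped (0.04 ± 0.06, limma adjusted p = 0.739). Batf3 was lower in CD24 cells, at 10.95, 10.93, 10.94 and 11.56 against 11.75, 11.64, 11.77 and 12.14 (-0.73 ± 0.06, limma adjusted p = 0.000307), with no overlap.

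Of the 19 cDC2 markers measured, 3 were higher in CD24 cells, 7 lower and 9 without a call, with a median of -0.12. The 7 lower were S100a4, the transcription factor Irf4, Tmem176b (-1.32), Tmem176a (-1.29), the lectin Clec4a4 (-1.07), the integrin Itgam (CD11b, -0.65) and the lectin Clec4a2 (-0.36). Irf4 read 9.15, 8.41, 9.22 and 9.69 in CD24 and 10.89, 10.72, 10.98 and 10.77 in CD172a arrays (-1.73 ± 0.17, limma adjusted p = 0.000725). Without WT replicate 1 or WT replicate 2 the calls of Itgam (limma adjusted p = 0.128 and 0.13) and Clec4a2 (0.0529 and 0.0609) were lost. The 3 that were higher in CD24 cells were Lyz2, the inhibitory lectin Clec12a (2.50 ± 0.27) and the chemokine receptor Ccr2 (1.03 ± 0.08). Clec12a (1.92) and Ccr2 (1.29) lay on the CD24 side in spleen as well. Neither was called in the test of culture against spleen (limma adjusted p = 0.194 and 0.227). The 9 without a call were Cd4, Csf1r, Cd209a, Mgl2, Clec10a, Csf3r, Esam, Cx3cr1 and Cd300a. Their arrays overlapped, and their signals lay between 4.75 and 7.45.

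Transcription factors of the DC lineage split both ways. Of 26 measured, 7 were higher in CD24 cells, 10 lower and 9 had no call. Higher were Batf (1.60 ± 0.18), the repressor Bcl6 (1.39 ± 0.09), the myeloid factor Spi1 (PU.1, 1.09 ± 0.12), the receptor Notch2 (0.84), Klf2 (0.40), Id2 (0.31) and Id1 (0.26). Zeb2, a repressor needed for other DC and myeloid fates, was lower, at 7.28, 7.20, 7.17 and 7.47 in CD24 against 8.93, 9.36, 9.07 and 8.85 in CD172a arrays (-1.77 ± 0.12, limma adjusted p = 0.000168). Tcf4, the factor of plasmacytoid DCs, was also lower, at 11.14, 11.04, 10.98 and 11.37 against 12.30, 12.36, 12.42 and 12.39 (-1.23 ± 0.08). Neither Zeb2 nor Tcf4 overlapped between the sorts. The rest of the 10 lower were Irf4, Batf3, Spib (-0.97), Nfil3 (-0.95), Tbx21 (T-bet, -0.82), Runx3 (-0.65), Bhlhe40 (-0.48) and Zbtb46 (-0.41). Zbtb46, the factor whose GFP allele all mice carried, read 8.58 to 9.02 in CD24 and 8.98 to 9.31 in CD172a arrays. The calls of Spib (-0.77 to -0.95, limma adjusted p = 0.142 to 0.18) and Bhlhe40 (0.134 to 0.167) were lost without any 1 of WT replicate 1, WT replicate 2 and KO replicate 1. That of Id1 was lost without WT replicate 2 (0.155) or KO replicate 1 (0.133).

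**Figure D3:**
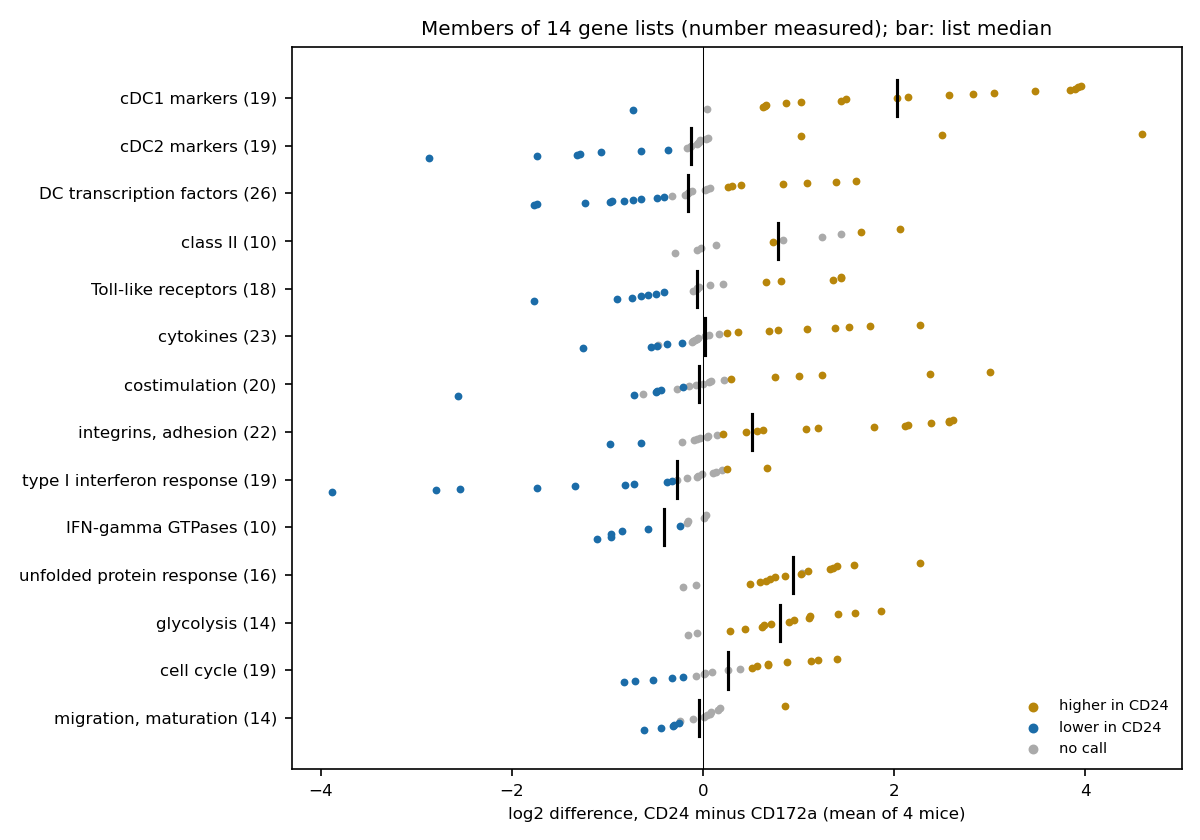
Log2 difference, CD24 minus CD172a (horizontal axis, mean of 4 mice), of each measured member of 14 gene lists, with a bar at the list median. Gold points are genes called higher in CD24, blue points lower and grey points without a call. The cDC1 (2.03), unfolded protein response (0.94) and glycolysis (0.81) medians lay to the right of 0 and the gamma interferon GTPase median (-0.41) to the left.

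Of the interferon-induced genes that were called, more were lower than higher in CD24 cells. Many such genes carry an interferon-stimulated response element (ISRE) in the promoter. Of 19 measured members of the type I interferon list, 9 were lower in CD24 cells, 2 higher and 8 without a call (median -0.27), against 13.3% lower and 11.2% higher among all genes. Ifit3, which restricts viral RNA, read 9.00, 9.18, 9.32 and 9.37 in CD24 and 11.46, 12.02, 11.89 and 11.66 in CD172a arrays (-2.54 ± 0.09, limma adjusted p = 2.06e-05). Oas1a, a sensor of double-stranded RNA, read 8.32, 8.89, 8.99 and 8.73 against 9.79, 10.71, 10.72 and 10.64 (-1.73 ± 0.08). Neither overlapped between the sorts. Ifit1 (-1.34) and Oasl2 (-0.81) followed the same course, after Rtp4 and Ddx58. Oasl1 (0.67) and Irf7 (0.25) were higher in CD24 cells, and Rsad2 (viperin) was not called, at 11.83, 11.88, 11.79 and 11.76 in CD24 and 11.39, 11.65, 11.70 and 11.74 in CD172a arrays (0.20 ± 0.08, limma adjusted p = 0.124). These last 3 were named after their values were seen, and the Irf7 call was lost without any 1 of WT replicate 1, WT replicate 2 and KO replicate 1 (limma adjusted p = 0.0936 to 0.106). The list mean ran from 10.88 to 11.06 in CD24 and from 11.54 to 11.82 in CD172a arrays.

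Gamma interferon induces a family of large GTPases that attack the vacuoles of intracellular microbes. The list used for this family also holds the transcription factor Irf1 and the signalling inhibitor Socs1, both without a call. Of its 10 measured members (of 16 listed), 6 were lower in CD24 cells and 4 had no call. The number higher was 0, against 11.2% of all genes, and the median was -0.41. The guanylate-binding proteins Gbp7 (-1.11 ± 0.08), Gbp9 (-0.96 ± 0.13), Gbp8 (-0.96 ± 0.16), Gbp3 (-0.85 ± 0.07) and Gbp4 (-0.57 ± 0.07) and the GTPase Iigp1 (-0.24 ± 0.06) were lower. The Iigp1 call was lost without WT replicate 2 (limma adjusted p = 0.102) or KO replicate 1 (0.0526). Gbp7 read 10.48, 10.56, 10.59 and 10.45 in CD24 and 11.31, 11.84, 11.78 and 11.60 in CD172a arrays, with no overlap. The Ifit, Oas and Gbp families have closely related copies, so a probe set can take signal from more than 1 of them, and the extent was not tested.

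Promoters were read for the ISRE because the list had members that differed and members that did not. The 250 bases before the start of 3 genes are shown, Ifit3 (chr19:34583279-34583528, plus strand) and Oas1a (chr5:120907526-120907775, minus strand), both lower in CD24 cells, and Rsad2 (chr12:26456453-26456702, minus strand), not called. They are from RefSeq on GRCm38.p6, written 5′ to 3′ in the direction of the gene, and capitals mark the ISRE core (GAAA, any 2 bases, GAAA) or its reverse complement.

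Ifit3: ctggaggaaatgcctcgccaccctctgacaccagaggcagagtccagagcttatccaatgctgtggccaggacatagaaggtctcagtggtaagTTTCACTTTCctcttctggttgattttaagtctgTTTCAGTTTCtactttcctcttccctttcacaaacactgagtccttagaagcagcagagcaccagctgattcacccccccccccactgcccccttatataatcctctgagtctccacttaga

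Oas1a: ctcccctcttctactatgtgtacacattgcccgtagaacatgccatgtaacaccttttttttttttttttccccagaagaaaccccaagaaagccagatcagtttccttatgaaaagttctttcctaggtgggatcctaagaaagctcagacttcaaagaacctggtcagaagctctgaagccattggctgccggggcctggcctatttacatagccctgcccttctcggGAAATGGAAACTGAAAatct

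Rsad2: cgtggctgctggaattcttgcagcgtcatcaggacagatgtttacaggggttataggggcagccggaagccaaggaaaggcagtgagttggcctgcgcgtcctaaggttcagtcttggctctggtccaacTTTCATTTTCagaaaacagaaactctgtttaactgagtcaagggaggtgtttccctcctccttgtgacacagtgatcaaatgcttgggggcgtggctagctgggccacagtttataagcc

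The core was searched on both strands, with overlapping matches allowed, and the 2 matches of Oas1a share bases. It stood in 531 of the 15614 genes with a promoter in the table (3.40%). In the type I interferon list 7 of 14 promoters had it (50.0%): 4 of the 6 lower in CD24 cells and 3 of the 8 others. It was also in 5 of 6 promoters of the gamma interferon GTPase list. Of the genes at least 2-fold lower in CD24 cells 13 of 148 had it (8.78%), and of those 2-fold higher 6 of 347 (1.73%). The promoters of Rtp4 and of some other list members were not used here. A match describes letters in this window and does not show that a factor binds there.

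The unfolded protein response list lay mostly on the CD24 side. Most of its genes encode chaperones, disulfide isomerases and degradation factors of the endoplasmic reticulum (ER), induced through Xbp1, Atf6 and Atf4 when folding is overloaded. The list also holds the transcription factors Xbp1, Atf4 and Ddit3. Of the 16 members measured, 13 were higher in CD24 cells, 0 lower (against 13.3% of all genes) and 3 without a call, with a median of 0.94. Without KO replicate 2, 14 were higher and the median was 1.12. Herpud1, which helps to clear misfolded proteins from the ER, read 12.65, 12.88, 12.21 and 11.57 in CD24 and 10.39, 10.45, 9.99 and 9.37 in CD172a arrays (2.27 ± 0.06, limma adjusted p = 7.52e-06). Its difference was nearly equal in the 4 mice (2.20 to 2.43), although both of its arrays were lowest in KO replicate 2.

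Other members of this list differed more in WT than in KO mice. The chaperone Creld2 read 11.01 and 11.60 in WT and 9.57 and 8.96 in KO CD24 arrays, against 9.15, 8.87, 8.42 and 8.40 in CD172a arrays. Its difference was 1.58 ± 0.31 (limma adjusted p = 0.0111) over all mice, 2.30 in WT and 0.86 in KO mice. Sdf2l1, a partner of the chaperone BiP, gave 2.17 in WT and 0.62 in KO mice, and the disulfide isomerase Pdia6 1.69 and 1.03. The difference between the genotypes was not called for any of them (limma adjusted p = 0.982 for Creld2, 0.579 for Sdf2l1 and 0.982 for Pdia6, n = 2 mice per genotype). KO replicate 2, whose CD24 array stood apart, gave the smaller KO difference for Creld2 (0.56 against 1.16) and Pdia6 (0.82 against 1.24). The Creld2 call was lost without WT replicate 1 (1.48 ± 0.40, limma adjusted p = 0.0655). The Sdf2l1 call was lost without WT replicate 1 (1.19 ± 0.36, limma adjusted p = 0.0897) or WT replicate 2 (1.08 ± 0.29, limma adjusted p = 0.0602). The ER chaperone Hsp90b1 (1.33 ± 0.15), the ubiquitin ligase Syvn1 (1.10 ± 0.18) and, outside the list, the chaperone Calr (calreticulin, 1.22 ± 0.08) were called whichever mouse was left out.

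The ER stress element, a motif bound by Atf6 with the factor NF-Y, was searched in the same promoters. Creld2 (chr15:88819396-88819645, plus strand) and Hsp90b1 (chr10:86705445-86705694, minus strand) are shown as 2 of the genes that rose, with capitals on the element (CCAAT, any 9 bases, CCACG) or its reverse complement, again from RefSeq on GRCm38.p6.

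Creld2: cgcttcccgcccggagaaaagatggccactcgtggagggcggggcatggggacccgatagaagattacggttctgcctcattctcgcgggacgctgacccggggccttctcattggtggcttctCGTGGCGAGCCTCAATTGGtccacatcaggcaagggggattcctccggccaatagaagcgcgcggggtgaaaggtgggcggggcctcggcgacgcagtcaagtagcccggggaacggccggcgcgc

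Hsp90b1: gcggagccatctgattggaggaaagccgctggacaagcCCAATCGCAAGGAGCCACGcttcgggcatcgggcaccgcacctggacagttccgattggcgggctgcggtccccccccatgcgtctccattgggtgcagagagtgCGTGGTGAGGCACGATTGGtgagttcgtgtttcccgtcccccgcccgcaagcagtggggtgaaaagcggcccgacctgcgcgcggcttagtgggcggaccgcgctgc

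Hsp90b1 held the element 2 times, on opposite strands. It was rare, in 20 of the 15614 promoters (0.128%). In the unfolded protein response list 6 of 14 promoters had it (42.9%), those of Hspa5, Hsp90b1, Pdia6, Creld2, Dnajc3 and Syvn1. Of the 431 genes at least 2-fold higher in CD24 cells, 347 had a promoter and 7 of these the element (2.02%). They were Calr, Creld2, Dnajc3, Ero1b, Hsp90b1, Pdia6 and Syvn1. Another motif, the ETS-IRF composite (GGAA, any 2 bases, GAAA) at which Irf4 and Irf8 bind with PU.1, stood in 2.56% of all promoters, in 2.88% of those of the genes 2-fold higher, in 4.05% of those 2-fold lower (6 of 148) and in 2 of 16 cDC1 marker promoters.

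**Figure D4:**
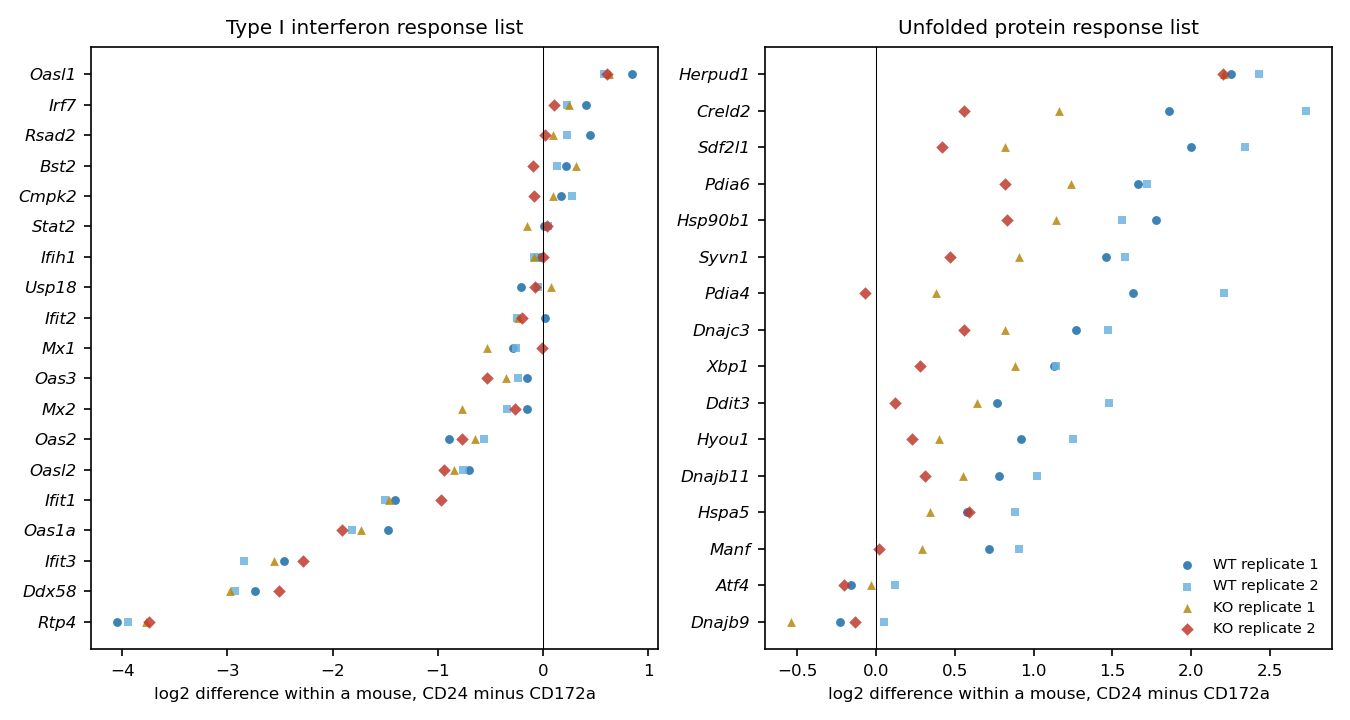
Log2 difference within a mouse, CD24 minus CD172a (horizontal axis), for each measured gene of the type I interferon and the unfolded protein response lists, with 1 symbol per mouse. Rtp4, Ddx58 and Ifit3 lay left of -2 in all 4 mice, Herpud1 lay between 2.20 and 2.43, and several ER genes such as Creld2 spread from WT (1.86 and 2.73) to KO mice (1.16 and 0.56).

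Cytokines and other products of activation differed in selected members. Of 23 cytokines, 9 were higher in CD24 cells, 5 lower and 9 without a call (median 0.02). Tnf read 12.61, 12.83, 12.81 and 11.71 in CD24 and 11.18, 11.20, 10.66 and 9.92 in CD172a arrays (1.75 ± 0.11, limma adjusted p = 0.000138). Il18 read 8.34, 9.52, 9.85 and 7.75 against 6.75, 6.96, 6.45 and 6.23 (2.27 ± 0.30). Neither cytokine overlapped between the sorts. The regulatory cytokine Tgfb1 (1.53 ± 0.09), Il1b (1.38 ± 0.18) and Lif (1.09 ± 0.13) were higher in CD24 cells too, and Il1rn, the natural antagonist of interleukin-1, was lower (-1.25 ± 0.17). Among genes chosen after their values were seen, Il12b, a subunit of interleukin-12, read 13.80 to 13.89 in CD24 and 13.43 to 13.70 in CD172a arrays (0.25 ± 0.07, limma adjusted p = 0.0395). That call was lost without any 1 mouse (0.0591 to 0.111), and Il6 was not called (-0.10 ± 0.06, limma adjusted p = 0.264).

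Of 13 inflammasome genes, 6 were higher in CD24 cells (against 11.2% of all genes), 2 lower and 5 without a call (median 0.33). Nlrp1b (2.19 ± 0.10) and Nlrp3 (1.62 ± 0.15), both sensors, Il18, Il1b and the DNA sensor Aim2 (0.58) were higher. Casp4, the caspase of the noncanonical inflammasome, was lower (-0.63 ± 0.08). The Aim2 call was lost without any 1 of WT replicate 1, WT replicate 2 and KO replicate 1 (limma adjusted p = 0.103 to 0.121).

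Costimulatory and checkpoint genes showed no common direction, with 6 of 20 higher, 6 lower and 8 without a call (median -0.04). Havcr2 (Tim-3) read 9.77, 9.49, 9.46 and 8.85 in CD24 and 6.80, 6.56, 6.12 and 6.10 in CD172a arrays (3.0 ± 0.10, limma adjusted p = 1.48e-05). Cd48 (2.38 ± 0.10), Pdcd1lg2 (PD-L2, 1.25 ± 0.14), Tnfsf15 (1.01 ± 0.16) and Icosl (0.76 ± 0.08) were higher in CD24 cells, while Tnfsf4 was lower. Of the general activation markers, which were chosen after their values were seen, Cd40 read 13.47 to 13.59 in CD24 and 13.53 to 13.68 in CD172a arrays and was not called (-0.07 ± 0.06, limma adjusted p = 0.471). Cd80 (-0.49) and Cd86 (-0.21) were lower in CD24 cells, the latter not without any 1 of WT replicate 1, WT replicate 2 and KO replicate 1 (limma adjusted p = 0.0917 to 0.131). The migration and maturation list had 1 of 14 higher, the chemokine Ccl17 (0.86 ± 0.18), and 5 lower, each by less than 2-fold, among them the actin bundler Fscn1 (-0.44) and the cytokine signalling brake Socs2 (-0.62). Both of these calls were lost without any 1 of WT replicate 1, WT replicate 2 and KO replicate 1 (limma adjusted p = 0.0914 to 0.129 for Fscn1 and 0.0635 to 0.0672 for Socs2), and that of Ccl17 without WT replicate 2 (0.0596).

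Pattern receptors differed in both directions. Of 18 genes in the Toll-like receptor list, 5 were higher in CD24 cells, 7 lower and 6 without a call. Among all genes 11.2% were higher and 13.3% lower. Tlr7, a receptor of single-stranded RNA, read 5.32, 5.61, 5.79 and 5.63 in CD24 and 7.28, 7.76, 7.67 and 6.72 in CD172a arrays (-1.77 ± 0.16, limma adjusted p = 0.000507). Tlr9, a receptor of CpG DNA, went the other way, at 12.44, 12.55, 12.49 and 11.81 against 11.17, 11.16, 10.82 and 10.69 (1.36 ± 0.09). Neither overlapped between the sorts. Besides Tlr9, Tlr3 and Tlr12, the trafficking chaperone of the nucleic acid receptors, Unc93b1 (1.45 ± 0.11), and Tlr13 (0.82 ± 0.06) were higher in CD24 cells, and Tlr1, a partner of Tlr2, was lower (-0.90 ± 0.16). Of 20 lectin receptors, 4 were higher and 7 lower. The lower ones included the mycobacterial glycolipid receptor Clec4e (Mincle, -1.78 ± 0.30), Clec4a1 (-1.62 ± 0.21) and Clec4b1 (-1.24 ± 0.25), whose call was lost without WT replicate 1 (limma adjusted p = 0.0589). Clec4e read 8.01 and 7.44 in WT but 6.31 and 6.15 in KO CD172a arrays, with 5.17 to 5.24 in all CD24 arrays.

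In the cross-presentation list 7 of 17 genes were higher in CD24 cells (against 11.2% of all genes), 1 lower (against 13.3%) and 9 without a call. Besides Wdfy4 these included the NADPH oxidase subunits Ncf4 (2.42 ± 0.14) and Rac2 (1.25 ± 0.13) and the small GTPases Rab43 (1.51 ± 0.08) and Rab27a (0.61 ± 0.06). The catalytic subunit of the same oxidase, Cybb, was the 1 that was lower, at 10.17, 10.60, 10.40 and 9.59 in CD24 against 11.95, 12.11, 11.68 and 11.60 in CD172a arrays (-1.64 ± 0.11, limma adjusted p = 0.00018). Of 14 class I genes, 4 were higher and 2 lower, against 11.2% and 13.3% of all genes. The higher were Calr, Pdia3 (0.61), the peptide transporter subunit Tap2 (0.57) and the immunoproteasome subunit Psmb9 (0.26). The lower were the proteasome activator Psme2 (-0.31) and the class I transactivator Nlrc5 (-0.27). Of these, the calls of Psmb9 (limma adjusted p = 0.0641 to 0.0929), Psme2 (0.0615 to 0.084) and Nlrc5 (0.0857 to 0.137) were lost without any 1 of WT replicate 1, WT replicate 2 and KO replicate 1.

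The class II genes could not be read without the genotype, because Ciita, the transactivator that was deleted, drives them. Of 10 members, 3 were called higher in CD24 cells, H2-DMa (2.06 ± 0.43), H2-Ob (1.65 ± 0.17) and Ciita itself (0.73 ± 0.18). Ciita read 10.51 and 10.85 in WT and 9.70 and 8.14 in KO CD24 arrays, against 10.15 and 10.62 in WT and 8.35 and 7.17 in KO CD172a arrays, so that its difference was 0.29 in WT and 1.16 in KO mice. That of H2-Ob was 1.23 in WT and 2.07 in KO mice. The Ciita call was lost without WT replicate 1 (limma adjusted p = 0.0501), KO replicate 1 (0.0674) or KO replicate 2 (0.0518). H2-Aa, an alpha chain of class II, read 13.63 and 13.54 in WT and 12.89 and 12.42 in KO CD24 arrays, against 13.52 and 13.51 in WT and 9.87 and 9.78 in KO CD172a arrays. Its subset difference was thus 0.07 in WT and 2.83 in KO mice. WT arrays of both sorts lay between 13.51 and 13.63, while KO arrays of CD172a cells lay far below those of CD24 cells. Whether the WT difference is understated at so high a signal was not tested. Of the other uncalled members, H2-Eb1 (0.24 in WT, 2.27 in KO mice) and H2-Ab1 (0.12, 1.56) also differed more in KO mice. Cd74 (0.12, 0.16), H2-Oa (0.07, -0.12), H2-Eb2 (-0.47, -0.10) and H2-Ea (-0.05, -0.07) showed no such gap, so it was not common to all class II genes. The test of the genotype by subset difference had 2 mice per genotype. An unadjusted limma p under 0.05 was found in 829 of 19938 genes, where chance alone gives about 5%. After adjustment the test called 0 of the 19938 genes (0%). H2-Aa had the lowest adjusted p of all (limma adjusted p = 0.0718), and H2-DMa, with 0.96 in WT and 3.15 in KO mice, had 0.104, while H2-Ob had 0.943 and Ciita 0.982. That count was 48 without KO replicate 1 and 4 without KO replicate 2, while it was 0 without either WT mouse. For the main markers the 2 genotypes gave close values: Xcr1 gave 4.03 in WT and 3.83 in KO mice, and Lyz2 4.51 and 4.66.

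Chemokines and their receptors differed in both directions. Of 19 chemokines, 4 were higher in CD24 cells, 5 lower and 10 without a call (all genes: 11.2% higher, 13.3% lower). The inflammatory chemokines Ccl3 (0.97 ± 0.18) and Ccl4 (0.82 ± 0.13) were higher along with Ccl17, and Ccl9 (-1.20 ± 0.11) and the neutrophil attractant Cxcl2 (-0.67 ± 0.16) were lower along with Ccl6. The Ccl17 call was lost without WT replicate 2 (limma adjusted p = 0.0596), and that of Cxcl2 without any 1 of WT replicate 1, WT replicate 2 and KO replicate 1 (0.085 to 0.102). Of 12 chemokine receptors, 3 were higher (Xcr1, Ccr2 and Ccr9, 0.72), 2 lower and 7 without a call. Cxcr5, which guides cells to B cell follicles, read 7.17, 6.53, 7.26 and 7.46 in CD24 and 8.48, 8.10, 8.81 and 8.36 in CD172a arrays (-1.33 ± 0.11), with no overlap. The other lower one, Ccrl2 (-0.40 ± 0.11), lost its call without WT replicate 2 (0.141), KO replicate 1 (0.12) or KO replicate 2 (0.0709).

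Of 17 Fc and complement receptor genes, 4 were higher in CD24 cells, 3 lower and 10 without a call. Over all genes the shares were 11.2% higher and 13.3% lower. The complement factor Cfp (properdin, 1.19 ± 0.13) and the activating receptor Fcgr4 (0.87 ± 0.16) were among the higher. The lower included Itgam and Cr1l (-0.66 ± 0.07). Of 15 lysosomal protease genes, 3 were higher, 3 lower and 9 without a call, beside the same shares over all genes. Napsa read 11.29, 11.39, 11.46 and 10.99 in CD24 and 9.92, 10.30, 10.07 and 9.78 in CD172a arrays (1.27 ± 0.07), while the cathepsins Ctsh (-0.67 ± 0.13), Ctsc (-0.65 ± 0.10) and Ctsd (-0.56 ± 0.07) were lower. The Itgam call was lost without WT replicate 1 (limma adjusted p = 0.128) or WT replicate 2 (0.13), and that of Ctsh without WT replicate 1 (0.0517).

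Adhesion genes were higher in CD24 cells in 13 of 22 (against 11.2% of all genes), lower in 2 and without a call in 7 (median 0.51). They included both chains of LFA-1, Itgal (2.58 ± 0.15) and Itgb2 (2.39 ± 0.11), and Itgax (CD11c), which read 10.99, 10.95, 11.08 and 10.86 in CD24 and 8.66, 8.60, 8.29 and 7.86 in CD172a arrays (2.62 ± 0.12, limma adjusted p = 4.52e-05). The tetraspanin Cd9 rose by 2.12 ± 0.11. In the list on uptake of dying cells and scavenging, 6 of 16 were higher and 1 lower. The phosphatidylserine receptor Timd4 (2.09 ± 0.20), the receptor kinase Axl (1.51 ± 0.17) and the bridging protein Mfge8 (1.5 ± 0.17) rose beside Cd36, and the scavenger receptor Lrp1 was lower (-0.61 ± 0.06).

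In glycolysis 12 of 14 genes were higher (against 11.2% of all genes), 0 lower (against 13.3%) and 2 without a call (median 0.81). Lactate dehydrogenase Ldha read 11.79, 11.88, 12.00 and 11.39 in CD24 and 10.53, 10.45, 10.18 and 9.54 in CD172a arrays (1.59 ± 0.11, limma adjusted p = 0.000168), with no overlap. Hexokinase Hk3 (1.86 ± 0.15), phosphoglycerate mutase Pgam1 (1.41 ± 0.10), triosephosphate isomerase Tpi1 (1.12 ± 0.09), the glucose transporter Slc2a1 (1.11 ± 0.06) and the lactate exporter Slc16a3 (0.95 ± 0.10) rose with it. Of 16 enzymes of immune metabolism, 5 were higher and 3 lower. Ido1, which degrades tryptophan, read 9.60, 9.91, 10.33 and 8.99 in CD24 and 7.04, 6.90, 7.12 and 7.59 in CD172a arrays (2.54 ± 0.27), and its paralog Ido2 gave 1.21 ± 0.14. Alox5ap, needed for leukotriene synthesis (2.62 ± 0.13), and the oxysterol producer Ch25h (2.03 ± 0.13) also rose, while the retinoic acid enzyme Aldh1a2 was lower (-1.02 ± 0.09). Of 13 genes of cholesterol synthesis, 5 were higher, 1 lower and 7 without a call (median 0.24), and 8 were higher without KO replicate 2.

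Cell cycle genes differed in both directions, with 8 of 19 higher in CD24 cells, 5 lower and 6 without a call (median 0.26). Among those higher were genes of mitosis: Birc5 (1.4 ± 0.16), Cdk1 (1.21 ± 0.22), Top2a (1.13 ± 0.18) and the spindle motor Kif11 (0.88 ± 0.13). Birc5 read 8.79, 9.06 and 9.05 in 3 CD24 arrays but 8.02 in that of KO replicate 2, against 7.27 to 7.45 in CD172a arrays. The replication factor Mcm3 (-0.83 ± 0.12) and the thymidylate synthase Tyms (-0.71 ± 0.06) were lower in CD24 cells.

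Markers of other cell types were measured because a sort can hold them. The summed level of the macrophage and monocyte list, as the mean over 16 genes, was 7.21 to 7.25 in CD24 and 6.85 to 6.96 in CD172a arrays, with 4 genes higher, 3 lower and 9 without a call. Among all genes 11.2% were higher and 13.3% lower. The mean includes Lyz2 with its difference of 4.59, while the median difference of the list was -0.05. Besides Lyz2, the higher ones were Cd68 (1.33 ± 0.12), Fn1 (0.40) and Fcgr1 (0.38), and the 3 lower included Cd14 (-0.49). The calls of Fn1 (limma adjusted p = 0.0601) and Fcgr1 (0.0952) were lost without WT replicate 1, and that of Fcgr1 also without WT replicate 2 (0.112). Fn1 turned to -0.06 with no replicate block and without the CD24 array of KO replicate 2, where it read 9.51 against 7.63 to 7.98 in the other CD24 arrays. Among the uncalled genes of the list, Adgre1 read 6.52 to 7.85 in CD24 and 6.92 to 8.28 in CD172a arrays, and Csf1r read 6.61 to 6.78 in all 8. Adgre1 was lower in CD24 cells in both WT mice (-0.75 and -0.68) and KO replicate 2 (-0.40) but not in KO replicate 1 (0.15). It gained a call in several alternatives, among them the fit without KO replicate 1. The part of macrophages or monocytes in the Lyz2 difference was not tested. The plasmacytoid DC list had means of 7.86 to 7.92 in CD24 and 7.90 to 7.95 in CD172a arrays. Of its 12 genes, 3 were higher and 4 lower, against 11.2% and 13.3% of all genes, and 5 were without a call. The higher included Pacsin1 (1.21 ± 0.11) and Ccr9 (0.72 ± 0.08). The lower included Tcf4 and Spib, given above, and Klra17 (-0.67 ± 0.12). The marker Siglech, named after its values were seen, read 6.45 to 6.69 in all 8 arrays.

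In the neutrophil, T and NK cell, mast cell and erythroid lists 1 gene each was called, of 15, 11, 13 and 9, and in the B cell list 3 of 10, against 24.5% of all genes. Their mean signals were 5.70 to 5.82 in CD24 and 5.81 to 5.97 in CD172a arrays for neutrophils, 5.70 to 5.99 and 5.80 to 6.0 for T and NK cells, and 6.02 to 6.10 and 6.16 to 6.32 for B cells. For mast cells, basophils and eosinophils they were 6.07 to 6.14 and 6.05 to 6.21, and for erythroid cells and megakaryocytes 5.78 to 5.86 and 5.78 to 5.95. In the neutrophil list 1 of 15 genes was called, S100a9 (-0.30), and in the T and NK cell list 1 of 11, Il7r (-0.70). In the B cell list Fcrla was higher (0.26) and Ms4a1 (-0.23) and the adaptor Blnk (-1.78 ± 0.11) lower, while Cd79a read 4.44 to 4.93 and Cd79b 6.89 to 7.22 in the 8 arrays. The S100a9, Fcrla and Ms4a1 calls were each lost without any 1 of 3 mice (limma adjusted p = 0.0661 to 0.142). These were KO replicate 1 for all 3 genes, with WT replicate 2 and KO replicate 2 for S100a9, WT replicate 1 and KO replicate 2 for Fcrla and both WT mice for Ms4a1. In the mast cell, basophil and eosinophil list Kit was the 1 gene called, at 11.56, 11.41, 11.44 and 11.51 in CD24 and 10.59, 10.38, 10.36 and 10.58 in CD172a arrays (1.00 ± 0.05, limma adjusted p = 6.78e-05). Kit is also a receptor of progenitors. The mast cell and basophil genes Fcer1a (4.50 to 4.81 in the 8 arrays) and Mcpt8 (5.33 to 6.07) were not called, and no detection call came with the signals. In the erythroid and megakaryocyte list Car2 was the 1 gene called (-0.57).

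The same sorts from spleen were set beside the culture to see which subset differences the 2 settings had in common. The tissues look normalized apart, so the comparison used the difference within each mouse (4 mice per tissue). It called 6188 genes (31.0%), with the culture difference above that of spleen in 2766 (13.9%) and below it in 3422 (17.2%). Of the 624 genes called at 2-fold or more in culture, 540 differed from spleen. They were chosen for a large culture difference, which also enters this test, so a high share was in part fixed by the choice. Among cDC1 markers the culture difference was smaller than the spleen difference in 15 of 19 and larger in 3, with a median of 2.03 against 3.90 in spleen. Among cDC2 markers it lay above, that is nearer to 0 or on the CD24 side, in 15 of 19 and below in 0, with medians of -0.12 and -1.99. By these medians both marker lists separated the sorts less in activated culture than in spleen.

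Irf8 had a spleen difference of 3.75 to 4.27 in the 4 mice, against 0.04 in culture (difference of differences -3.87 ± 0.12, limma adjusted p = 1.77e-09). Ifi205 went from 5.27 to 0.63, Xcr1 from 5.41 to 3.93, Clec9a from 4.90 to 3.96, Sirpa from -3.90 to -2.64 and Cd24a from 2.04 to 0.05. S100a4 was not called in this test, at -2.50 in spleen and -2.87 in culture (limma adjusted p = 0.155). Tlr7 moved from -5.48 to -1.77.

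Other genes separated the sorts in culture and not, or the other way, in spleen. Lyz2 (0.21 ± 0.26, SD, n = 4 spleen mice) and Entpd1 (-0.03 ± 0.31) were close to equal between the spleen sorts, against 4.59 and 4.28 in culture. Wdfy4 gave 0.36 in spleen and 3.05 in culture. Tespa1, a T cell receptor signalling protein, changed from -2.68 to 2.14, the prostaglandin D synthase Hpgds from -1.65 to 2.87, Pdcd1lg2 from -2.31 to 1.25, Axl from -1.44 to 1.51, Nlrp3 from -1.28 to 1.62 and Itgax from -0.55 to 2.62. In the opposite sense Lima1, an actin regulator, changed from 3.28 to -1.47 and Gprc5c from 2.84 to -1.55. The macrophage elastase Mmp12 (-5.11 in spleen, -0.09 in culture), Dscam (-4.71, -0.20), Clec4a4 (-5.86, -1.07), Gpr141b (5.99, 0.21), P3h2 (5.31, 1.12) and Serpinb8 (3.87, -0.07) had most or all of their difference in spleen. Spleen cells and cultured cells differed in origin, activation and processing set at once, which cannot be told apart here.

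**Figure D5:**
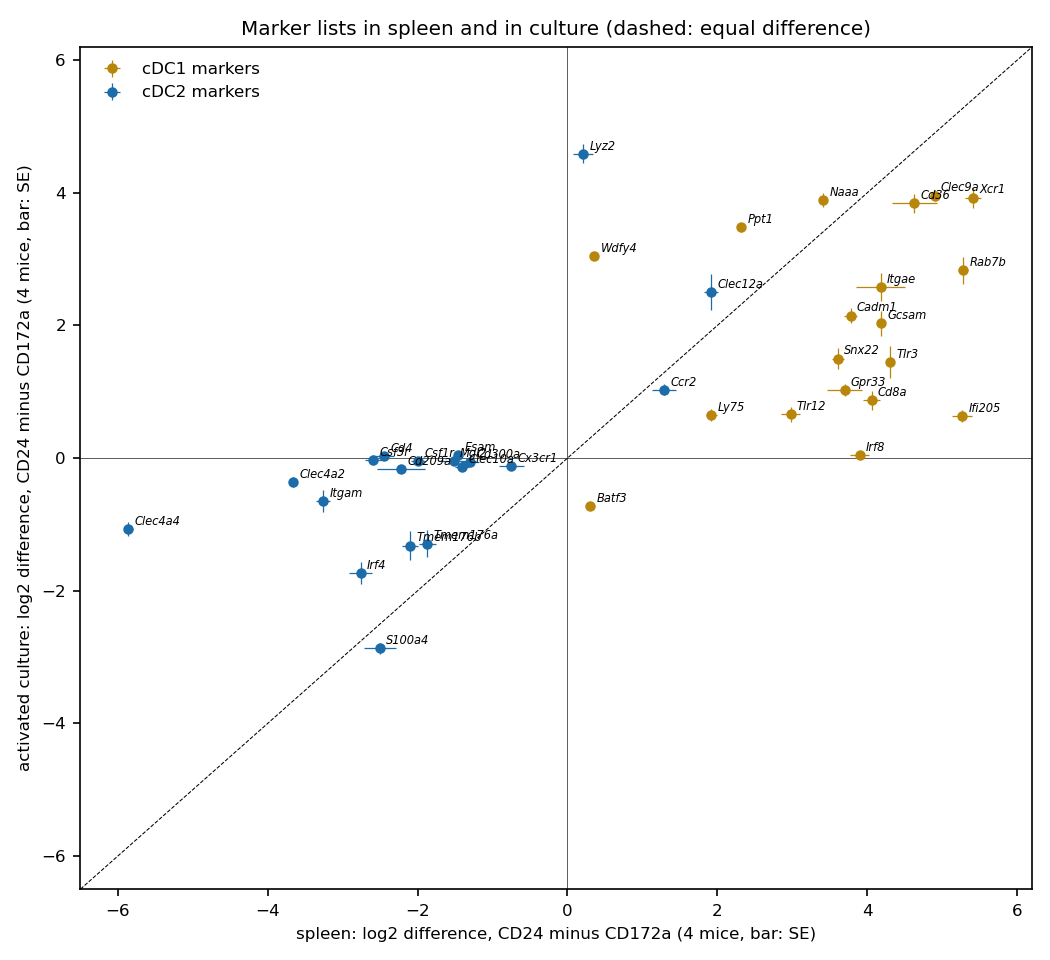
Subset difference in activated culture (vertical axis) against spleen (horizontal axis), both log2, CD24 minus CD172a, for the cDC1 (gold) and cDC2 (blue) marker lists. Bars are the SE over 4 mice, from the limma fit in culture and from the plain SD in spleen. A dashed line marks equal difference. Most cDC1 markers lay below the line and most cDC2 markers above it, Irf8 lay at 3.90 in spleen and 0.04 in culture, and Lyz2 lay at 0.21 and 4.59.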

How the data were processed

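The 8 BM culture and 8 spleen arrays were read from a table of processed values, 1 per probe set. The authors deposited log2 signals. The unit was read from the values, and the background correction, normalization and summarization are not given in the sources used here. Per the labels, total RNA was amplified with the Ovation Pico WTA system before hybridization. That step can alter ratios between genes and was the same for all arrays.

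Of 30177 probe sets, 21789 had 1 gene symbol, 1621 several and 6767 none. A gene was represented by its probe set with the highest mean (999 genes had several), so that 19938 genes were tested. The other probe sets entered an alternative.

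Tests used limma 3.58.1 in R 4.3.3, with 2-sided p-values. The subset difference was fitted on the 8 culture arrays with mouse as a fixed block (3 residual and 3.798 prior degrees of freedom), p-values being adjusted by Benjamini-Hochberg. The genotype by subset and the culture minus spleen differences were fitted on the difference between the 2 arrays of each mouse. The labels give the mouse of each array, which sets the pairing. As a check, the 2 arrays of a mouse, centred on their groups, correlated at 0.205 in culture WT, 0.393 in culture KO, 0.202 in spleen KO and -0.0957 in spleen WT mice (over genes). With 2 mice per group the value is the same for both by construction.

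Named genes were the 4 markers, Cd24a, the 15 highest and 15 lowest called genes with 1 sign in all 4 mice, up to 6 members of each list by size of difference, all members of the cDC1, cDC2, transcription factor and class II lists, and the 6 highest and 6 lowest genes against spleen. Up to 10 genes of the genotype by subset test were to be named, and 0 were called. The arrays, markers and 32 gene lists were chosen with earlier results of these data known. Listed genes with no probe set of a single symbol, such as Isg15 and H2-K1, were not analysed here. Alternatives were other blocks, each mouse left out, other normalizations, filters and probe set rules, and other variance priors. Arrays carry no read depth. Their number limits the precision.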

Additional observations from a re-analysis of the deposited data

Results flagged for a closer look

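Among the differences within the 4 culture mice of 246 named genes, 9 had 1 mouse far from the other 3, where chance alone flags about 1 in 20 genes. WT replicate 1 stood apart in Clec10a (-0.33) and S100a9 (-0.02), and WT replicate 2 in Itgae (1.67) and Ncr1 (0.03). KO replicate 1 stood apart in Cd79b (-0.30) and Hpgds (3.57), and KO replicate 2 in Cr1l (-0.43), Lcn2 (-0.87) and Prg2 (-1.69). For Prg2, an eosinophil granule protein, the CD172a array of KO replicate 2 read 7.45 against 5.79 to 5.95 in the other CD172a arrays. For Lcn2, a neutrophil protein, the same array read 7.28 against 6.32 to 6.46.

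The subset difference changed between spleen and activated culture in 16 genes that were singled out by the naming rule. On the scale of culture minus spleen, it was higher for Mmp12 (5.02), Tespa1 (4.82), Clec4a4 (4.79), Hpgds (4.52), Dscam (4.51), Lyz2 (4.37) and Sirpa (1.26). It was lower for Gpr141b (-5.78), Lima1 (-4.75), Ifi205 (-4.64), Gprc5c (-4.39), P3h2 (-4.19), Serpinb8 (-3.93), Cd24a (-1.98), Xcr1 (-1.48) and Clec9a (-0.95). Each passed limma's test of that difference over all genes, with 4 mice per tissue. Passing was a condition of being listed here, so it is no further support.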

How the results depend on the processing

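The fits with no replicate block gave 1773 genes higher in CD24 cells and 2055 lower, against 2240 and 2648 with the block. Of the 191 called named genes, 126 kept their call in all 16 alternatives, 157 kept it whichever mouse was left out, 32 lost it with no replicate block and 6 lost it without KO replicate 2. Of the 55 uncalled, 7 gained a call without that mouse. Higher genes numbered 1429 in WT mice alone and 1183 in KO mice alone, and 431 when a 2-fold difference was also required. Lower genes numbered 1504, 956 and 193 under these settings, and 1540 to 2794 when 1 mouse was left out. Genes at least 2-fold lower rose from 193 to 294 with no replicate block and without the CD24 array of KO replicate 2, and Fn1 then turned from 0.40 to -0.06. The genotype by subset count of 0 became 2 with no replicate block, 2 with a trended and robust prior, 1 with quantile normalization, 8 when all 8 mice shared the spread, and 0 to 48 when 1 mouse was left out. Genes with a culture difference below that of spleen numbered 1993 in WT mice alone, against 3422. The cause of these changes was not tested, beyond the smaller number of mice in some settings. The other counts stayed within 1.5 times their value.

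Precision is limited by 4 mice, 2 per genotype. No detection or saturation call came with the signals. How far differences are understated at high signals or in the lowest quartile (means under 5.65) was not tested. High signals include those of Irf8, Cd24a, Il12b and Cd40 and, in WT arrays, of H2-Aa, H2-Ab1, H2-Eb1 and Cd74.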
